A study of Xenopus laevis with 3 samples.

Results

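The posterior endoderm of Xenopus laevis embryos at stage 39 was set against the same region at stage 30. Hand-dissected endoderm of stages 30, 39 and 46 was split into an anterior region, the later source of organs such as stomach, pancreas and liver, and a posterior region, the later source of intestine. The purpose stated for the study was to find genes linked to the organs of the endoderm. Anterior cDNA carried Cy5 and posterior cDNA carried Cy3 on spotted cDNA arrays, with 2 arrays, A and B, for each stage. The comparison used the Cy3 channel of both stage 39 arrays and of both stage 30 arrays, that is 4 of the 12 channels of the series and 2 of its 3 deposited samples. Both groups are posterior endoderm of embryos for which the labels name no strain, treatment or genetic change, and the number of embryos behind each RNA is not given in the sources used here. The labels call the arrays of a stage duplicates without saying whether they held separate dissections, so every error given here rests on hybridisations. It is not the spread of 2 Cy3 values alone. The fit used both channels and drew each error towards a value shared by all probes (prior df 5.79, residual df 4).

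Stage 30 is a tailbud embryo and stage 39 a hatched tadpole that does not yet feed. Between them the endoderm is a yolk-rich mass in which the gut tube and its organs take shape, and the yolk of its cells serves as the food store. The epidermis that covers the embryo, the muscle blocks and the nervous system lie close to this mass, so that lists of their marker genes were followed beside those of the gut and liver. The RNA that each array measured came from tissue pieces, in which fewer cells of a type and less RNA per cell cannot be told apart.

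The labels state that the scanner gain was set for each slide, and gain and stage cannot be told apart here. The median Cy3 intensity of all spots was 1135 and 975 on stage 39 arrays A and B, against 3037 and 1954 on stage 30 arrays A and B. At least 1 saturated Cy3 pixel was found in 31 and 34 spots at stage 39, against 672 and 349 spots at stage 30. Spots well above background, that is over the local background by more than 2 of its SDs, made up 58.1% and 60.8% of spots at stage 39, against 63.2% and 44% at stage 30. After normalisation the Cy3 levels of arrays A and B correlated across probes with r of 0.933 at stage 39 and 0.874 at stage 30, and arrays of different stages with r between 0.795 and 0.855. These correlations are across probes, which are not independent replicates. All levels below are normalised log2 Cy3 intensities, a log2 difference is stage 39 minus stage 30, and its error is the SE of the fit with n = 2 arrays a stage.

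Of 12027 probes tested, 205 were higher and 277 were lower at stage 39 at an adjusted p under 0.05, which is 4.01% of the probes in all, 1.7% higher and 2.3% lower. Of the gene lists followed, epidermis and keratins had the largest share of lower probes (38.1%). Liver plasma proteins had the largest share of higher probes (55.6%). The wording of the lists was adjusted after values had been seen, so these shares describe the data and test nothing. With each name at its brightest passing probe, the largest named falls were those of SCO-spondin and a 47 K keratin. The largest named rises on that rule were those of a calcium pump and a muscle myosin. Dimmer probes of H,K-ATPase and apolipoprotein E changed more than these (-5.455 and 3.993 on the log2 scale). Every called probe changed by over 2-fold, and the smallest called change was 2.22-fold. The median over all probes was 0.07 on the log2 scale with a median SE of 0.34. The size of the count rested on single arrays: it was 482 on all 4 arrays, 20 without stage 39 array A, 48 without stage 39 array B, 627 without stage 30 array B and 1411 without stage 30 array A, and in each of these fits all 482 probes kept their sign. Those 482 probes were selected for large differences on these same arrays, so a kept sign is no separate support. Left without normalisation between arrays, the same fit called 14 probes higher and 1803 lower (0.771% higher of those called, against 42.5% in the normalised fit), around a median of -1.17 for all probes.

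**Figure D1:**
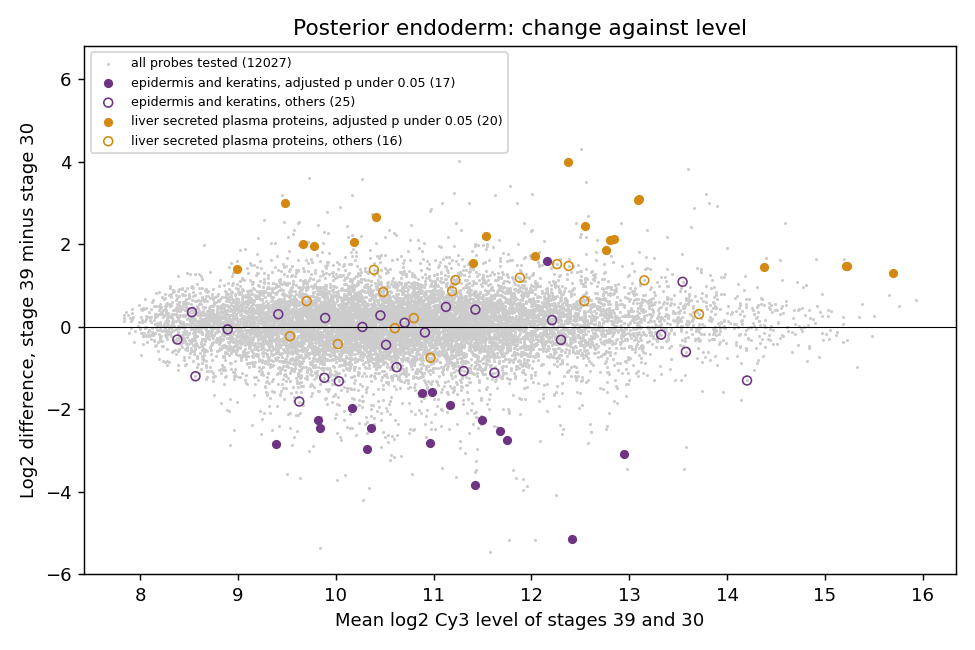
Each point is a probe, with its mean log2 Cy3 level over stages 39 and 30 on the x axis and its log2 difference, stage 39 minus stage 30, on the y axis. Grey points are all 12027 probes tested; purple marks the 42 probes of the epidermis and keratin list and orange the 36 probes of the liver plasma protein list, filled where the adjusted p was under 0.05. Filled purple points lie below 0 except for 1, and filled orange points all lie above 0.

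Keratins and other genes of the epidermis fell in part. The wording of this list was adjusted after values had been seen, so its share of calls is a description only. Its epiplakin and sciellin probes were not named in the written definition of the list. Of 42 tested probes of this list, 16 were lower and 1 was higher at stage 39 (38.1% lower, against 2.3% of all probes), and the median of the list was -1.16, against 0.07 for all probes. By name, with each gene taken at its brightest probe, 4 of 18 were lower and 0 higher. Their summed level on the linear scale was 104000 and 107700 at stage 39, against 226300 and 238800 at stage 30. Without stage 39 array A, 1 of these probes passed as lower, and without stage 39 array B, 3 did. Leaving out saturated spots gave 14 lower probes.

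A type I keratin of 47 K, a filament protein of embryonic skin in Xenopus, had levels of 10.03 and 9.67 at stage 39, against 14.88 and 15.10 at stage 30. The fall was at least 35.3-fold (adjusted p = 0.00177), written as a lower bound because its stage 30 spots held saturated pixels on both arrays. Whether these pixels lowered the spot median was not tested. A second type I keratin, annotated as epidermal and embryonic, had levels of 9.21 and 9.79 at stage 39, against 13.10 and 13.59 at stage 30 (-3.84 ± 0.34, adjusted p = 0.000791). This keratin was 1 of the named genes that passed in every fit that left out an array, and its other tested probe did not pass (-0.32 ± 0.32). The probe whose annotation is cut to "keratin as" stood at 11.35 and 11.47 at stage 39, against 14.42 and 14.55 at stage 30 (at least 8.43-fold lower, adjusted p = 0.000845), with saturated spots on both stage 30 arrays. All of these keratins were low on both stage 39 arrays; that the stages do not overlap was a condition for naming them.

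The plakins, which tie keratin filaments to cell junctions and to the cornified layer, fell as well. Epiplakin was lower in 3 of 4 tested probes, with log2 differences of -2.83 ± 0.32, -2.82 ± 0.34 and -2.75 ± 0.37 in those that passed. Periplakin was lower in 2 of 3 probes (-2.52 ± 0.36 and -1.97 ± 0.29), and its remaining probe, the brightest, did not pass (1.09 ± 0.75). Envoplakin was lower in 2 of 4 probes (-2.28 ± 0.29 and -1.91 ± 0.32). Sciellin, a precursor of the cornified envelope in mammals, was lower in 5 of 7 probes, between -2.47 ± 0.35 and -1.59 ± 0.35. Uroplakin III, a membrane protein of the mammalian urinary tract lining, had levels of 8.76 and 8.93 at stage 39, against 12.31 and 11.30 at stage 30 (-2.96 ± 0.44, adjusted p = 0.00557), and 1 of its 2 tested probes passed.

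Keratins of simple epithelia did not pass the test. Type II keratin 8 was at least 2.47-fold lower without passing in the probe with saturated spots on both stage 30 arrays (adjusted p = 0.150) and had a log2 difference of -1.12 ± 0.31 in its other probe (adjusted p = 0.083), and keratin 19 had -0.61 ± 0.47 and -0.14 ± 0.33. Junction plakoglobin, a component of junctions in many epithelia, had -0.01 ± 0.36 and 0.16 ± 0.28. The hatching enzyme UVS.2, which is secreted by the hatching gland of the skin, was the exception in direction. One of its probes had levels of 12.90 and 13.01 at stage 39, against 11.65 and 11.08 at stage 30 (1.59 ± 0.30, adjusted p = 0.0192), while its other tested probes lay between -0.20 and 0.41 and did not pass.

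H,K-ATPase, which pumps protons out of cells in exchange for potassium, was lower in all 6 of its tested probes. The falls ran from -2.38 ± 0.31 on the log2 scale to at least 43.9-fold in the probe with saturated spots on both stage 30 arrays. Its brightest probe by mean level had levels of 10.02 and 10.39 at stage 39, against 14.67 and 13.92 at stage 30 (17.1-fold lower, adjusted p = 0.000656), with a saturated spot on 1 stage 30 array, and it passed in every fit that left out an array. The 11 tested probes annotated as Na+/K+-exchanging ATPase or Na/K ATPase alpha, the pump that keeps sodium out of cells, did not pass. Of these, 1 was not well above background at stage 30 (at least 2.65-fold higher, adjusted p = 0.0761), and the others lay between -0.03 ± 0.33 and 1.14 ± 0.31. In the membrane transport list as a whole 6 of 28 probes were lower, all of them H,K-ATPase (21.4%, against 2.3% of all probes). One was higher, monocarboxylate transporter 7, with levels of 12.80 and 12.24 at stage 39, against 10.29 and 10.86 at stage 30 (1.95 ± 0.33, adjusted p = 0.0116, 1 of 3 probes).

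The annotation "IgG Fc bind", cut short, which stands for a mucin-like secreted protein in mammals, was lower in 4 of 4 probes. Its brightest probe had levels of 10.12 and 9.92 at stage 39, against 13.49 and 14.29 at stage 30 (-3.87 ± 0.42, adjusted p = 0.00143). SCO-spondin, a large secreted glycoprotein known from the roof of the vertebrate brain, was lower in both of its tested probes. The brighter probe had levels of 9.18 and 9.73 at stage 39, against 14.84 and 14.40 at stage 30 (at least 35.8-fold lower, adjusted p = 0.000656), with saturated spots on both stage 30 arrays. Galectin-3, a lectin that binds galactosides, had levels of 11.46 and 12.21 at stage 39, against 15.39 and 15.16 at stage 30 (at least 10.9-fold lower, adjusted p = 0.00131), with saturated spots on both stage 30 arrays, and both of its probes fell. Hyaluronan synthase 1, which makes the matrix sugar hyaluronan, had levels of 8.87 and 9.14 at stage 39, against 12.31 and 12.82 at stage 30 (-3.56 ± 0.38, adjusted p = 0.00131).

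Proteases and other enzymes were among the remaining large falls. A probe cut to "m-calpain lar", a subunit of a calcium-activated protease, had levels of 8.29 and 8.49 at stage 39, against 11.28 and 13.33 at stage 30 (-3.91 ± 0.78, adjusted p = 0.0242). The annotation cut to "deoxyribonu" was lower in 2 of 3 probes, by -4.21 ± 0.39 and -2.47 ± 0.33. A probe with a scavenger receptor domain was not well above background at stage 39 and was at least 11.6-fold lower (adjusted p = 0.00143). The probe cut to "SH3-contain" had levels of 8.01 and 8.29 at stage 39, against 11.16 and 12.59 at stage 30 (-3.73 ± 0.44), and its other tested probe did not pass. Annexin I, a membrane-binding protein regulated by calcium, was lower in 2 of 3 probes, by at least 8.92-fold in the larger fall (adjusted p = 0.00131). The same list held an annexin II type 2 probe that was higher (1.72 ± 0.28, adjusted p = 0.00864, 1 of 4 probes).

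For some annotations 1 probe stood apart from the others of the same name, and such a value may belong to a different gene. ATP synthase A chain, a subunit of the enzyme that makes ATP in mitochondria, had levels of 10.95 and 8.36 at stage 39, against 13.80 and 12.57 at stage 30, in the 1 of its 8 tested probes that passed (-3.53 ± 0.70, adjusted p = 0.0230), with a saturated spot on 1 stage 30 array. Peptidyl-prolyl isomerase, an enzyme of protein folding, passed in 1 of 5 probes (-3.11 ± 0.74, adjusted p = 0.0490), and that probe was not well above the high local background of either stage 30 array. Phosphofructokinase, an enzyme of glycolysis, passed in 1 of 12 probes (-2.91 ± 0.48). Pyruvate carboxylase, which feeds glucose synthesis, passed in 1 of 3 probes, with levels of 11.61 and 12.66 at stage 39, against 14.71 and 15.37 at stage 30 (at least 7.51-fold lower, adjusted p = 0.00415), with saturated spots on both stage 30 arrays.

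**Figure D2:**
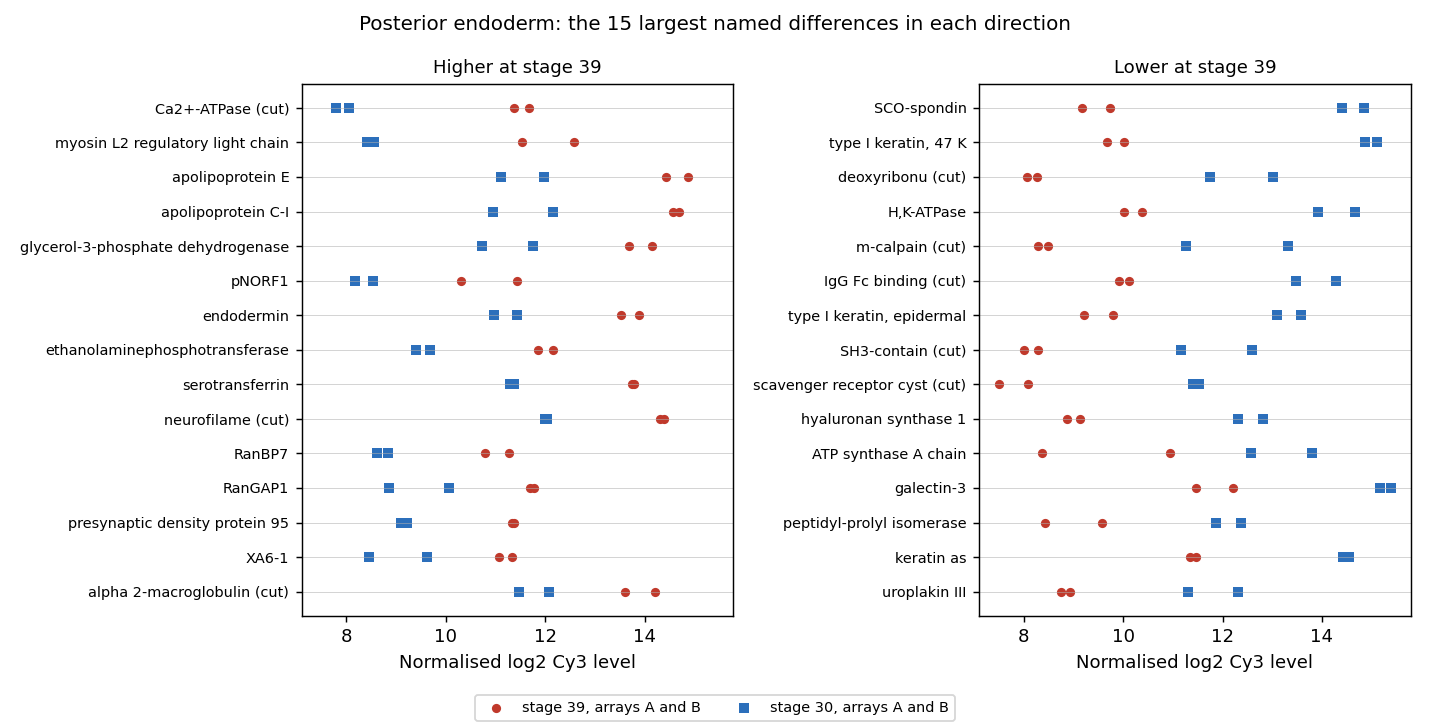
Normalised log2 Cy3 levels (x axis) of the 15 named genes with the largest rise and the 15 with the largest fall, 1 gene a row at its brightest passing probe. Red circles are the 2 stage 39 arrays and blue squares the 2 stage 30 arrays. In no row do the stages overlap, a condition of the naming rule; ATP synthase A chain has the widest gap between its stage 39 arrays, 10.95 and 8.36.

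Proteins that the vertebrate liver secretes into blood plasma rose in posterior endoderm. The wording of this list was likewise adjusted after values had been seen. Its proteinase alpha1 inhibitor III probes were not named in the written definition of the list. Of 36 tested probes of this list, 20 were higher and 0 were lower at stage 39 (55.6% higher, against 1.7% of all probes), with a median of 1.46, against 0.07 for all probes, and 29 had an unadjusted p under 0.05. By name 9 of 18 were higher and 0 lower. Their summed linear level was 493400 and 488900 at stage 39, against 184300 and 153300 at stage 30. Without stage 39 array A, 1 probe passed as higher, without stage 39 array B, 2 did, and leaving out saturated spots gave 16. With no normalisation between arrays 3 probes were called higher, and with the Cy3 channel fitted alone 11 were.

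Apolipoprotein E, a lipid carrier of plasma, rose in 4 of 4 probes. The brightest had levels of 14.42 and 14.88 at stage 39, against 11.12 and 11.98 at stage 30 (8.59-fold, log2 difference 3.10 ± 0.35, adjusted p = 0.00165). A second apolipoprotein E probe had levels of 14.28 and 14.46 at stage 39, against 10.76 and 10.00 at stage 30 (15.9-fold, 3.99 ± 0.34, adjusted p = 0.000656), and it passed in every fit that left out an array. Apolipoprotein C-I, a smaller protein of the same lipid particles, had levels of 14.58 and 14.69 at stage 39, against 12.17 and 10.94 at stage 30 (3.08 ± 0.38, adjusted p = 0.00276). Serotransferrin, which carries iron, had levels of 13.75 and 13.78 at stage 39, against 11.30 and 11.38 at stage 30 (2.43 ± 0.29, adjusted p = 0.00208), and both of its probes rose. The gap between the stages was several times the gap between the arrays of a stage for both apolipoprotein E probes and for serotransferrin. The test and the naming by size select for such gaps, so this is no further support.

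Protease inhibitors and complement genes belonged to the same rise. Proteinase alpha1 inhibitor III was higher in 3 of 3 probes, by 1.85 ± 0.38 and 2.09 ± 0.28 in 2 of them and by at least 7.75-fold in the other, which was not well above background at stage 30 (adjusted p = 0.00131). A probe cut to "alpha 2-macrog", an inhibitor that traps proteases, had levels of 13.60 and 14.20 at stage 39, against 12.08 and 11.48 at stage 30 (2.12 ± 0.37, adjusted p = 0.0133). Complement factor B rose by 2.04 ± 0.41 and coagulation factor XIII B chain by 1.71 ± 0.35 and 1.55 ± 0.37 in its 2 probes. Complement C3, the central protein of complement, passed as higher in 4 of 5 probes with Xenopus annotation, whose spots were saturated on all 4 arrays, so that no size of the change is given. Complement C9 passed in 1 of 4 probes (1.95 ± 0.33). The 3 fibrinogen probes had 0.62 ± 0.28, 0.84 ± 0.29 and 0.86 ± 0.30 and did not pass, nor did 2 plasminogen probes at -0.75 ± 0.30 and 0.21 ± 0.27. The labels place the liver among the organs of the anterior region; the part of any liver cells in the posterior pieces was not tested.

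Each of the lists for endoderm and gut held 1 called probe, too few to read its share as a result. On the early endoderm list 9.09% of probes were higher, against 1.7% of all probes. On the hindgut and posterior list 6.67% were lower, against 2.3% of all probes. Endodermin, a macroglobulin-like marker of endoderm in Xenopus, had levels of 13.90 and 13.52 at stage 39, against 11.42 and 10.97 at stage 30 (5.70-fold, 2.51 ± 0.32, adjusted p = 0.00291), the 1 probe of 11 on the early endoderm list that passed. The 3 tested probes of GATA-6B, an endodermal transcription factor, had -0.24 ± 0.28, 0.14 ± 0.34 and 0.17 ± 0.33. In the hindgut and posterior list 1 of 15 probes fell, a probe annotated as posterior protein with levels of 10.58 and 10.28 at stage 39, against 13.51 and 12.22 at stage 30 (-2.43 ± 0.49, adjusted p = 0.0243), while its other tested probe had -0.34 ± 0.31. The caudal gene Xcad-1, which patterns the posterior of the embryo, had levels of 10.47 and 10.09 at stage 39, against 9.25 and 9.31 at stage 30, without passing (1.00 ± 0.28, adjusted p = 0.0841). The hox and other homeotic probes of the list lay between -0.64 and 0.77 and did not pass.

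Digestive genes gave 1 fall among 15 probes (6.67%, against 2.3% of all probes), an annotation cut to "digestive t" (-2.47 ± 0.43, adjusted p = 0.0129). Villin, an actin-bundling protein of the intestinal brush border, had levels of 9.74 and 10.10 at stage 39, against 10.12 and 9.85 at stage 30 (-0.06 ± 0.30). The heart type of fatty acid-binding protein, a carrier of fatty acids inside cells, had levels of 12.16 and 12.93 at stage 39, against 10.64 and 11.27 at stage 30, without passing (1.59 ± 0.46, adjusted p = 0.0953). Its other probe was not well above background at stage 30 (at least 3.93-fold higher, adjusted p = 0.212).

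With each name at its brightest passing probe, a calcium pump and a muscle myosin led the named rises. A probe cut to "Ca2+-ATPas", a calcium pump, had levels of 11.37 and 11.68 at stage 39, against 8.05 and 7.79 at stage 30, where it was not well above background, a rise of at least 10.98-fold (adjusted p = 0.000656). It passed in every fit that left out an array. A myosin L2 regulatory light chain, a part of the muscle motor, had levels of 11.54 and 12.58 at stage 39, against 8.42 and 8.55 at stage 30 (3.57 ± 0.43, adjusted p = 0.00219). Probes with the separate annotation myosin regulatory light chain 2 had -1.48 ± 0.56, -0.98 ± 0.31 and 0.07 ± 0.32 and did not pass. The sarcoplasmic calcium pump probes of the skeletal muscle list lay between -0.45 ± 0.29 and 1.30 ± 0.60 and did not pass either. The skeletal muscle list as a whole gave 3 of 53 probes higher (5.66%, against 1.7% of all probes) and 0 lower, a median of 0.35 and summed levels of 172600 and 178000 at stage 39, against 146800 and 168100 at stage 30. Skeletal alpha actin, with levels of 13.44 and 13.96 at stage 39 and 14.16 and 14.10 at stage 30, where its spots were saturated, did not pass (adjusted p = 0.522). The part of muscle tissue in these values was not tested.

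A neurofilament annotation, cut to "neurofilame", was higher in 4 of 4 tested probes. The brightest had levels of 14.31 and 14.38 at stage 39, against 11.99 and 12.03 at stage 30 (5.05-fold, 2.33 ± 0.31, adjusted p = 0.00339). These 4 probes were the only ones of 16 on the neural list that rose (25%, against 1.7% of all probes). Of the list, 1 probe fell, the transcription factor SOX-2 of the neural plate (-2.05 ± 0.33, adjusted p = 0.00864, 1 of 3 probes). By name, 1 of 9 was higher and 1 lower, with a median by name of -0.495. By probe the median was 0.254, against 0.07 for all probes, so the direction of the list depends on the summary taken. The summed level of the neural list, the 4 neurofilament probes included, was 62590 and 65710 at stage 39, against 31820 and 27680 at stage 30. Synaptotagmin I of synaptic vesicles (-1.31 ± 0.40), peripherin of neurons (0.00 ± 0.31 and 0.54 ± 0.32) and complexin 2 (0.23 ± 0.30) did not pass. PSD-95, annotated as a presynaptic density protein and known as a synaptic scaffold, which the list did not hold, rose by 2.20 ± 0.28 (adjusted p = 0.00304, 1 tested probe). The part of nerve tissue in these values was not tested.

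Further rises among the named genes came from metabolism and nuclear transport. Glycerol-3-phosphate dehydrogenase, which links glycolysis with lipid synthesis, had levels of 13.68 and 14.15 at stage 39, against 11.76 and 10.73 at stage 30 (2.67 ± 0.37, adjusted p = 0.00424, 1 of 3 probes). A probable ethanolaminephosphotransferase, an enzyme of membrane lipid synthesis, had levels of 11.86 and 12.15 at stage 39, against 9.68 and 9.40 at stage 30 (2.47 ± 0.41, adjusted p = 0.0103). RanGAP1, an activator of the Ran GTPase in nuclear transport, rose by 2.27 ± 0.40 and the nuclear import protein RanBP7 by 2.30 ± 0.30 in 1 of 13 tested probes, the others of which did not pass. Probes annotated as pNORF1 (2.52 ± 0.46, 1 of 2 probes) and XA6-1 (at least 4.52-fold, 1 of 2 probes) were also among the 15 largest. The other tested probe of pNORF1 had -0.77 and that of XA6-1 had -1.32, and neither passed. The lowest RanBP7 probe had -1.39. As with the falls above, a probe that stands apart from others of its name may belong to a different gene.

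**Figure D3:**
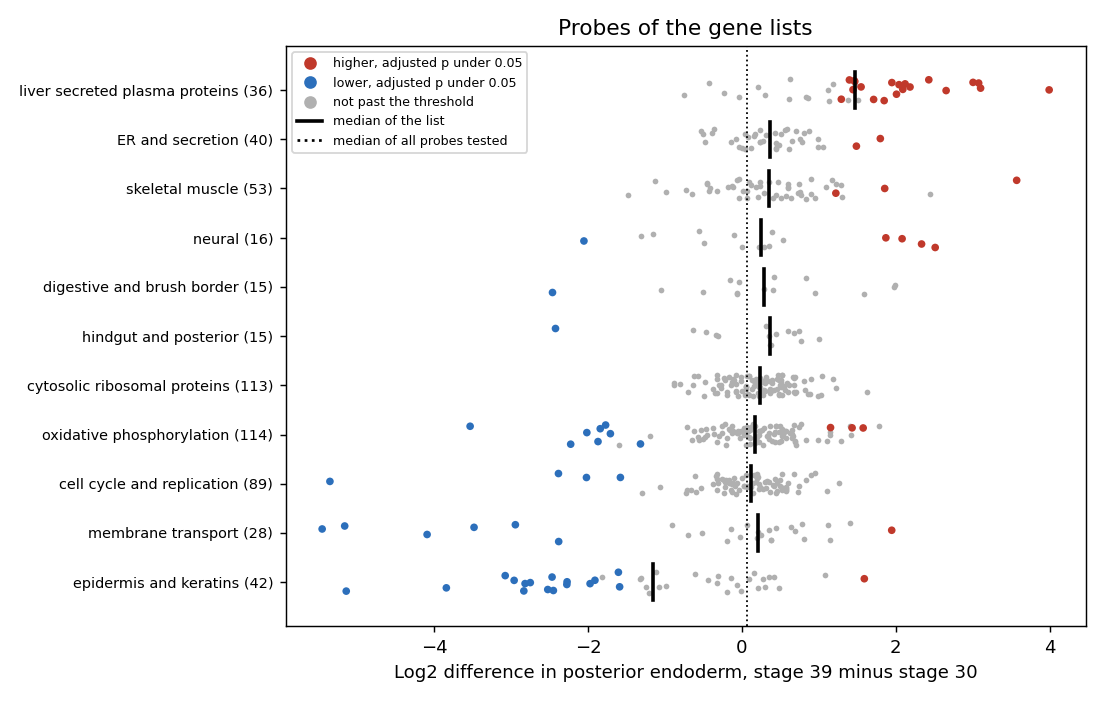
Log2 difference in posterior endoderm (x axis) of every tested probe of 11 gene lists, with the number of probes behind each name. Red points rose and blue points fell at an adjusted p under 0.05, grey points did not pass, the bar is the median of the list and the dotted line the median of all probes, 0.07. The bars of the plasma protein list (1.46) and the epidermis list (-1.16) lie farthest from the dotted line.

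Lists of genes that most cells use held few called probes, other than oxidative phosphorylation. Over all probes 4.01% were called in either direction. In limma's test 0 of 113 probes of cytosolic ribosomal proteins passed (median 0.23), and 7 had an unadjusted p under 0.05. Likewise 0 of 22 histone probes (median 0.06) and 0 of 24 probes of heat shock chaperones (median -0.03) passed, with 2 and 3 at an unadjusted p under 0.05, against 2263 of all 12027 probes. Among 114 probes of oxidative phosphorylation 3 were higher and 8 lower (2.63% and 7.02%, against 1.7% and 2.3% of all probes; median 0.18), and 5 of the 8 lower probes carried the annotation cytochrome-c oxidase, the last complex of the respiratory chain, of which 8 probes were tested. Its largest fall was to 10.63 and 10.06 at stage 39, against 12.15 and 13.00 at stage 30 (-2.23 ± 0.36, adjusted p = 0.00864).

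The cell cycle list gave 4 lower probes of 89 (4.49%, against 2.3% of all probes) and none higher (median 0.12), and 2 of the 4 carry the same annotation. M-phase inducer phosphatase 2, which activates cyclin-dependent kinases, was lower in 2 of 20 tested probes, by at least 27.7-fold in the larger fall (adjusted p = 0.0337) and by -2.38 ± 0.46 in the other. DNA topoisomerase II, which untangles DNA, fell by 2.02 on the log2 scale (adjusted p = 0.0068, 1 of 3 probes named in full), and cyclin B2, a regulator of mitosis, fell at least 2.99-fold (adjusted p = 0.0159). Secretion genes held 2 higher probes of 40 (5%, against 1.7% of all probes) and none lower (median 0.37): protein disulfide isomerases A6 (1.80 ± 0.34) and A3 (1.49 ± 0.28, 1 of several probes of that name), which form disulfide bonds in secreted proteins. The other tested probes of isomerase A3 lay between -0.53 ± 0.29 and 0.23 ± 0.29 and did not pass. The lysosomal membrane protein CD63 rose in 1 of 8 probes (1.94 ± 0.35).

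Matrix, detoxification and signalling genes moved both ways or little. Of 22 matrix probes 2 were higher and 2 lower (9.09% each, against 1.7% and 2.3% of all probes). Among 29 glutathione and detoxification probes 1 was higher and 3 were lower (3.45% and 10.3%). With so few calls the shares of these lists are a description only. Fibronectin, a matrix protein that cells adhere to, rose by 1.97 ± 0.34 in 1 of 2 probes, and a laminin alpha chain of basement membranes by 1.82 ± 0.31. Lumican, a collagen-binding proteoglycan, had levels of 9.74 and 9.71 at stage 39, against 12.84 and 11.58 at stage 30 (-2.49 ± 0.54, adjusted p = 0.0343), and a matrix metalloproteinase probe fell by 1.15 on the log2 scale. The other tested probe with the metalloproteinase annotation had 0.66 ± 0.29 and did not pass. Cytochrome P450 2C41, of a family that oxidises drugs and lipids, rose by 1.48 ± 0.35 (adjusted p = 0.0457), while 3 of 5 sulfotransferase probes fell, the largest by -2.09 ± 0.37. Follistatin, which binds activin, was the 1 probe of 44 on the signals list that passed, with levels of 9.72 and 9.74 at stage 39, against 11.45 and 11.04 at stage 30 (-1.51 ± 0.32, adjusted p = 0.0316, 1 of 3 probes). Smooth muscle and gut mesoderm gave 1 lower probe of 17, a calponin H3 probe (-1.35 ± 0.28). The other tested calponin H3 probes lay between -0.20 and 0.45 and did not pass. Of the 5 blood and 4 notochord probes 0 passed (2 and 0 at an unadjusted p under 0.05), where 4.01% of all probes did. Of 12 immune probes 1 fell, an immunoglobulin annotation (-2.36 ± 0.35). The share that fell was 2.27% for signals, 5.88% for smooth muscle and 8.33% for immune probes, against 2.3% of all probes. With 1 call or none on each of these lists, no share is read as a result.

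The Cy5 channel of the same arrays shows what the anterior endoderm did between the same stages. There 719 probes passed, 272 higher and 447 lower (5.98% of those tested). Of the 482 probes called in posterior endoderm, 472 had the same sign in anterior endoderm and 276 were called in the same direction. Both channels were read from the same spots, so this agreement is not independent of the posterior calls and is no separate support for them. The change in posterior minus the change in anterior endoderm, tested in the same fit, passed for 6969 probes (57.9% of all), 28% below 0 and 29.9% above. Both channels of a spot share the array, and the fit set their correlation at 0.954, so small differences pass this test. This 1 correlation served for all probes, so the error of a difference is a fixed share of the probe's posterior error. Neither that error nor its p-value measures the probe's own spread of differences alone.

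Among the 15 largest falls, 14 were also called lower in anterior endoderm. SCO-spondin fell in anterior endoderm to 8.29 and 8.69 at stage 39, against 14.12 and 13.32 at stage 30, and its changes in the regions did not differ by the test (difference 0.06 ± 0.13, adjusted p = 0.699). The 47 K keratin gave 0.39 ± 0.18 (adjusted p = 0.0868). Saturated Cy3 spots at stage 30 may limit both of these differences. The H,K-ATPase probes did not move one way: the brightest fell further in anterior endoderm, to 8.89 and 9.09 at stage 39, against 14.30 and 13.57 at stage 30 (difference 0.85 ± 0.11, adjusted p = 9.7e-05, with a saturated Cy3 spot on 1 stage 30 array). Another gave 0.50 ± 0.14, the dimmest fell further in posterior endoderm (-0.65 ± 0.10, adjusted p = 0.000293), and the other 3 did not pass, with -0.16 ± 0.11, 0.00 ± 0.13 and 0.17 ± 0.08. The epidermal embryonic keratin fell further in posterior endoderm (-0.82 ± 0.10, adjusted p = 0.000118).

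Of the 15 largest rises, 8 were also called higher in anterior endoderm, and 11 rose more in posterior endoderm by the test of the difference. Over all 12027 probes, 272 were called higher in anterior endoderm and 29.9% had a difference that passed above 0. The 15 were chosen for a large posterior change, which favours a positive difference, so these counts do not show that the rises belong to posterior endoderm. Apolipoprotein E had anterior levels of 13.19 and 13.63 at stage 39, against 12.63 and 13.56 at stage 30, so that its anterior arrays overlapped between the stages (0.32 ± 0.35, adjusted p = 0.616). Its posterior change exceeded the anterior one by 2.78 ± 0.11 (adjusted p = 6.56e-07). Serotransferrin had anterior levels of 14.20 and 14.27 at stage 39, against 13.72 and 13.65 at stage 30 (0.54 ± 0.29), and a difference of 1.89 ± 0.09 between the regions. Endodermin had an anterior change of 0.39 ± 0.32 and a difference of 2.12 ± 0.10, and the brightest neurofilament probe 0.57 ± 0.31 and 1.77 ± 0.09. Ca2+-ATPase and the myosin L2 light chain rose in both regions and more in posterior endoderm (1.77 ± 0.09 and 1.64 ± 0.13). RanBP7 and XA6-1 rose more in anterior endoderm (-0.32 ± 0.09 and -0.52 ± 0.12).

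**Figure D4:**
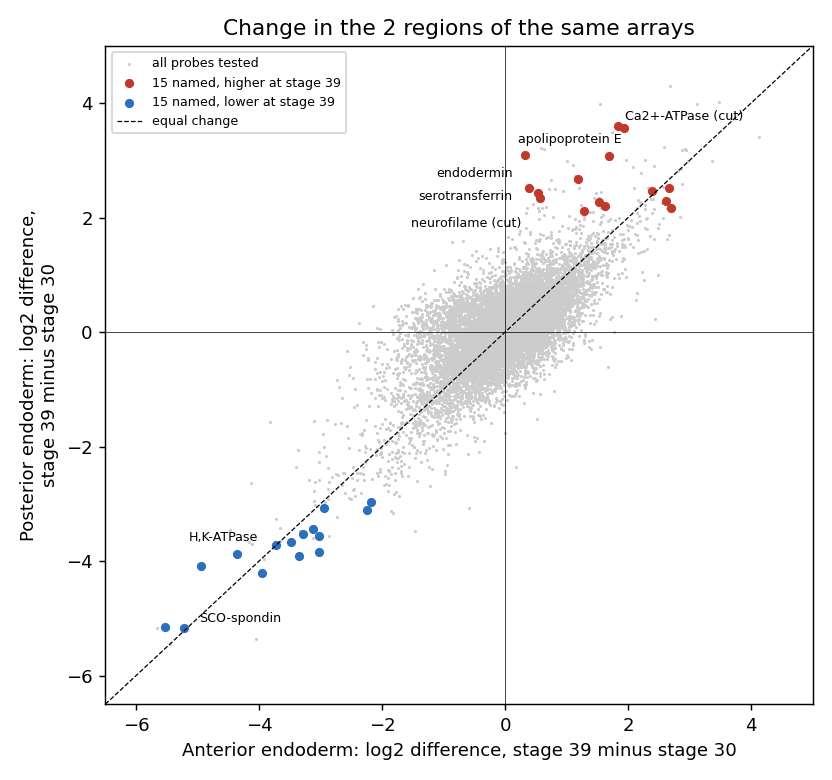
Log2 difference, stage 39 minus stage 30, in anterior endoderm (x axis) and posterior endoderm (y axis) for all 12027 probes (grey), the 15 largest named rises (red) and the 15 largest named falls (blue); the dashed line marks equal change. Falls such as SCO-spondin lie near the line, while apolipoprotein E, endodermin, serotransferrin and the neurofilament probe lie above it, with anterior changes between 0.32 and 0.57. The red and blue probes were chosen by their posterior change.

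The stage 46 arrays, which entered the normalisation but no test, give the later level of these genes in posterior endoderm. The brightest apolipoprotein E probe had levels of 11.12 and 11.98 at stage 30, 14.42 and 14.88 at stage 39, and 14.88 and 14.79 at stage 46. Serotransferrin was at 14.63 and 14.67 at stage 46, above both stage 39 arrays. Endodermin was at 11.82 and 12.50 at stage 46, between its levels at stages 30 and 39. Ca2+-ATPase was at 8.33 and 8.25 and the myosin L2 light chain at 8.64 and 8.95 at stage 46, both within 1 log2 unit of their stage 30 levels. At stage 46 the Ca2+-ATPase probe was not well above background, and the myosin probe was so on only 1 array. H,K-ATPase was at 10.16 and 9.93 and the 47 K keratin at 9.33 and 9.15 at stage 46, near or below their stage 39 levels. The ATP synthase A chain probe that passed was at 12.84 and 12.57 at stage 46, above both stage 39 arrays. Annexin I, in its probe with the larger fall, was at 10.86 and 9.47 at stage 46, where it was well above background on only 1 array. The other annexin I probe that fell was at 11.99 and 12.26 at stage 46, against 11.99 and 12.10 at stage 30.

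**Figure D5:**
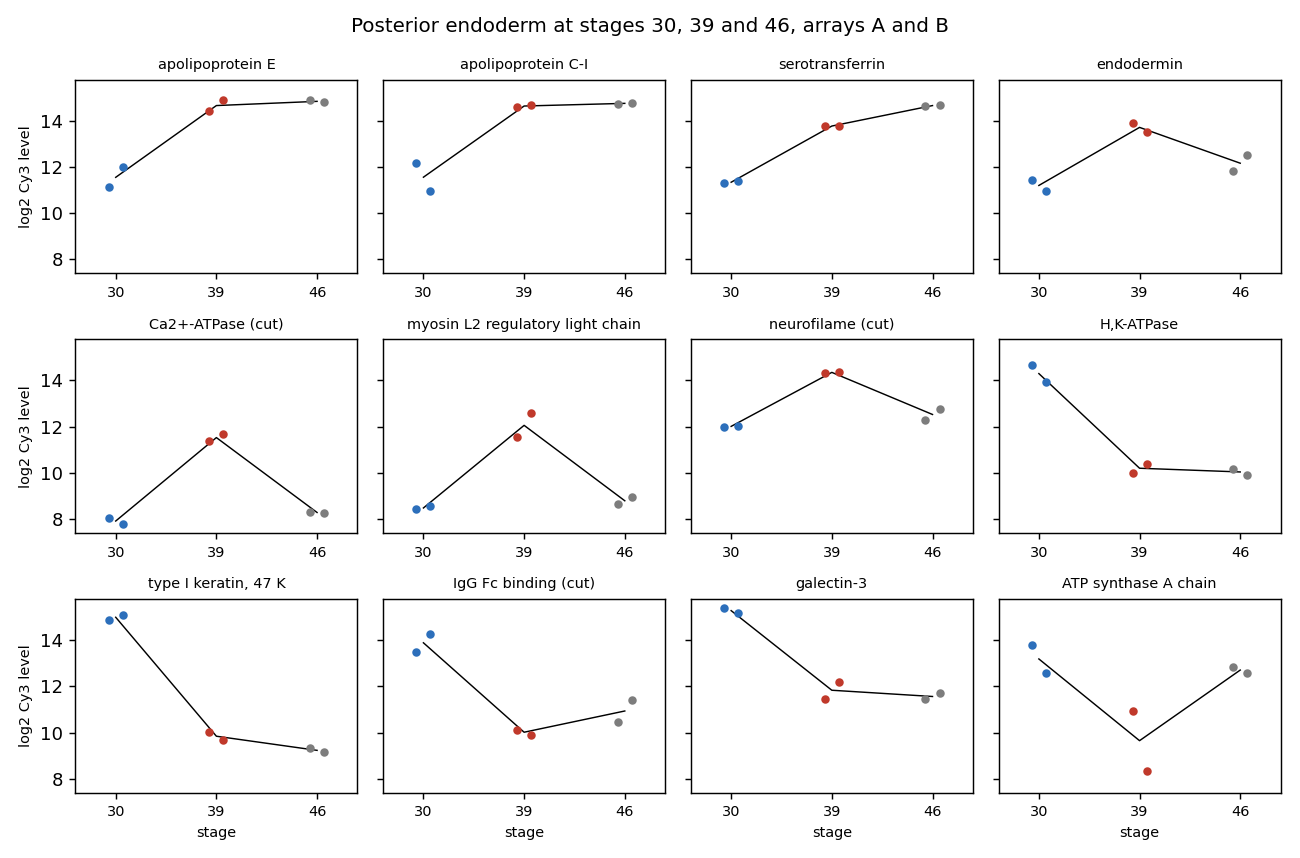
Normalised log2 Cy3 levels in posterior endoderm at stages 30, 39 and 46 for 12 named genes; points are arrays A and B and the line joins their means. Apolipoprotein E, apolipoprotein C-I and serotransferrin are high at both later stages. Ca2+-ATPase, the myosin light chain and the neurofilament probe are highest at stage 39. The Ca2+-ATPase probe was not well above background at stages 30 and 46. H,K-ATPase, the 47 K keratin and galectin-3 are low at both later stages.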

How the data were processed

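Scanner intensities of 6 spotted cDNA arrays were analysed, per the labels 2 for each stage, with posterior cDNA in Cy3 and anterior cDNA in Cy5 and no exchange of dyes. The files hold the authors' deposited GenePix foreground and background intensities for each spot. Per the file headers, GenePix also gave the percent of saturated pixels in each spot and a flag score, which marks spots that were not found. The submitters' own normalised ratios were not used here. Median foreground and background were corrected by normexp with an offset of 50, ratios were normalised within arrays by loess (span 0.3), and mean intensities between the 6 arrays by Aquantile, in limma 3.58.1 under R 4.3.3. The log2 values of both channels of 4 arrays were fitted with limma's separate-channel model (intraspot correlation 0.954), and p-values are two-sided with Benjamini-Hochberg adjustment over the 12027 probes tested. A probe was tested if it was found on all 4 arrays and its Cy3 median exceeded the background median by over 2 background SDs on at least 2 of them. Of 21504 spots, 239 controls were left out. A fold against a stage at which a probe was never well above background is written as "at least". There, a level below the array's lowest signal among probes that were well above background was raised to that signal. Where the levels already lay above it, the value is the plain fold and not a bound. Folds with saturated spots on both stage 30 arrays are also written as "at least". Whether saturated pixels lowered the spot median was not tested.

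Named genes are the 15 names with the largest change in each direction whose arrays did not overlap, each at its brightest passing probe, with up to 4 names of each list and members that a statement turned on. Gene names are the arrays' own annotation, often cut short. The members and lists were chosen with earlier results of these data known, and the filter on names and the wording of the lists were adjusted after values had been seen. The model was tested on simulated data. Same-letter arrays of the stages share only a letter: their deviations correlated at -0.23. The number of arrays limits the precision. No sequences or genome positions of the probes were used.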

Additional observations from a re-analysis of the deposited data

Results flagged for a closer look

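Listed here are 31 named probes whose change between the stages differed between posterior and anterior endoderm by limma's test of that difference. Beyond the largest named rises and falls, a probe is listed only if its difference was at least 1 log2 unit in size. Other named probes passed with smaller differences and are left out, among them fibronectin (0.83, adjusted p = 9.99e-05) and SOX-2 (-0.62, adjusted p = 0.00052). The same test passed for 57.9% of all probes, so passing it does not set a gene apart. All values are the posterior minus the anterior log2 change, stage 39 minus stage 30. Region and dye cannot be told apart here, since posterior cDNA carried Cy3 on every array.

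Among the genes that rose in posterior endoderm, the rise was larger there for apolipoprotein E (2.78 and 2.44 in 2 probes), endodermin (2.12), serotransferrin (1.89), Ca2+-ATPase (1.77), the neurofilament annotation (1.77 and 1.31), the myosin L2 light chain (1.64) and glycerol-3-phosphate dehydrogenase (1.49). The same held for cytochrome P450 2C41 (1.40), apolipoprotein C-I (1.39), annexin II type 2 (1.31), proteinase alpha1 inhibitor III (1.03), alpha 2-macroglobulin (0.83), RanGAP1 (0.74) and PSD-95 (0.58). The rise was smaller there for XA6-1 (-0.52) and RanBP7 (-0.32).

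Among the genes that fell in posterior endoderm, the fall was larger there for succinyl-CoA 3-ketoacid transferase (-1.57), posterior protein (-1.46), ubiquitin-conjugating enzyme E2 G (-1.39), annexin I (-1.33) and M-phase inducer phosphatase 2 (-1.31). It was larger by less for peptidyl-prolyl isomerase (-0.85), the epidermal embryonic keratin (-0.82), uroplakin III (-0.78), hyaluronan synthase 1 (-0.54) and galectin-3 (-0.31). The fall was smaller there in the brightest probe of H,K-ATPase (0.85), with a saturated Cy3 spot on 1 stage 30 array, while another of its 6 probes had a larger fall there (-0.65) and 3 did not differ by the test. It was also smaller for the IgG Fc binding annotation (0.49). Galectin-3 had saturated Cy3 spots on both stage 30 arrays. Follistatin, in 1 of 3 probes, changed by -1.51 ± 0.32 in posterior endoderm and by 0.52 ± 0.32 in anterior endoderm, a difference of -2.03. Its other tested probes had changes below 0 in both regions. Their differences were -1.06, which passed, and -0.27, which did not (adjusted p = 0.216 by limma).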

How the results depend on the processing

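The 482 called probes all kept their sign wherever they were tested in 18 of the other settings, and 476 did with no normalisation between arrays. Called and named probes were selected for large differences on these same arrays, so a kept sign is no separate support. Of 69 named probes none changed sign, 31 passed under every setting that keeps all arrays and in which they were tested and 7 in all 4 fits that leave one out. Counts (higher, lower) moved more. They were 67 and 131 (198 over 2-fold) with Cy3 alone quantile normalised, 80 and 143 (223) with limma on normalised Cy3 values, 14 and 1803 (1817) with no normalisation between arrays, 389 higher (728 over 2-fold) in the fit of all 6 arrays, and 122 and 160 (282) where all 4 arrays had to be above background, which tested 6445 probes. The last setting called 3957 differences between the regions. With the replicate letter as a block there were 619 and 626 (977 over 2-fold) and 4007 differences between the regions. With the letters crossed, a setting chosen after seeing the data, they were 1737 and 1378 (1237) and 3977. Leaving out 1 array gave 6 to 750 higher, 14 to 661 lower, 20 to 1411 over 2-fold and 4505 to 7170 differences between the regions; the lone array of a stage is then assumed to vary like the others, with the intraspot correlation of all 4. The cause of these shifts was not tested. Saturation at stage 30 (43 called probes) and dim signal (21 rises and 34 falls not well above background at the lower stage) may limit the sizes.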

Other observations

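Genes outside the lists, chosen after their values were seen, included other components of epithelial surfaces. Claudin-1, a tight junction protein, was lower in 2 of 3 tested probes: XL087c13 had levels of 8.88 and 8.58 at stage 39, against 11.03 and 11.58 at stage 30 (-2.58 ± 0.39, adjusted p = 0.00626 by limma), and XL078d07, not well above background at stage 39, fell at least 5.62-fold. Desmoyokin, a large protein at the membrane of keratinocytes in mammals, was lower in 3 of its probes and higher in none, with levels of 11.88 and 12.38 at stage 39, against 13.84 and 13.42 at stage 30, in the brightest of them, XL100d24 (-1.499 ± 0.306, adjusted p = 0.0260). Choriolysin H, a hatching enzyme first described in fish, was lower in 2 of 3 probes, by -1.33 ± 0.29 in XL085f17 and -1.65 ± 0.32 in XL099g19.

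Of the transcription factors chosen in the same way, N-myc, a regulator of growth and proliferation, was higher in 2 of 5 probes, XL088b14 (1.49 ± 0.30) and XL069d08 (1.42 ± 0.34), and the other 3 did not pass. A probe annotated as Meis3, a homeobox cofactor of hox proteins (XL073d20), had levels of 9.51 and 10.50 at stage 39, against 8.38 and 7.89 at stage 30 (1.87 ± 0.40, adjusted p = 0.0313).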
